A study of Drosophila melanogaster with 7 samples.

Results

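In dissected midguts of Drosophila melanogaster 24204 annotated features were measured, and 10 of them are described here: Mhc, Mlc1, Mlc2, Act57B, Tm1, Tm2, up, wupA, bt and sls. They were chosen by symbol, as genes of the sarcomere, the contractile unit of muscle, and all 10 passed the filter on low counts. The flies, virgin females whose strain label reads sg-Gal4,UAS-GFP, lived at 10%, 20% or 40% oxygen until their guts were taken at day 53. Gal4 and UAS-GFP are the parts of a green fluorescent reporter system, which all 3 groups carry; the labels do not give the cells that the driver marks, nor how many guts went into a library. The 7 strand-specific mRNA libraries comprise 3 at 10%, 3 at 20% and 1 at 40%. By their labels, batch 1 holds replicates 1 and 2 at 10% and at 20%, and batch 2 holds replicate 3 of each and the single 40% library.

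The fly midgut is an epithelium wrapped in circular and longitudinal visceral muscle, which moves food along and also signals to the intestinal stem cells. Fly visceral muscle is striated, so its transcripts include those of the whole sarcomere. In each sarcomere myosin thick filaments slide along actin thin filaments, tropomyosin and the troponins on the thin filament make the sliding depend on calcium, and giant elastic proteins tie the thick filaments to the Z-disc at the sarcomere's ends.

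The libraries held 19.2 to 22.2 M counts (M for mega). Genes of the mitochondrial genome took 4.10% to 4.68% of counts in batch 1 and 61.0% to 71.0% in batch 2, and were left out before scaling, which left 20.6 to 21.2 M counts in batch 1 and 5.73 to 7.49 M in batch 2. Effective lengths in the deposited tables correspond to a mean sequenced fragment of 273 to 281 bases in batch 1 against 230 to 255 bases in batch 2. The sarcomere genes had 706 to 36494 counts each in a library, far above 3 counts, the detection floor of 0.141 to 0.523 CPM (counts per M counts). Separate pools of flies behind the replicates are not stated in the labels; the p-values therefore reflect the spread among these samples, and that spread may be technical.

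All 10 genes were higher in the libraries labelled batch 2. Together they took 0.115% and 0.116% of counts outside the mitochondrial genome in replicates 1 and 2 at 10% oxygen and 0.152% and 0.141% at 20%, against 1.73% in replicate 3 at 10%, 1.72% in replicate 3 at 20% and 1.55% at 40% (exact Clopper-Pearson 95% intervals, which cover counting error only, from 0.113% to 0.116% for the lowest and from 1.717% to 1.736% for the highest). All 10 were called higher in batch 2 by edgeR's quasi-likelihood test with oxygen as a covariate (adjusted p below 0.05, over 9853 features and the 6 libraries at 10% and 20%), and in all 10 every batch 2 library lay above every batch 1 library. Of all features tested 53.9% were called, 26.6% higher in batch 2 and 27.3% lower; DESeq2 called 54.5%. On the same scale, 28.8% of features had every batch 2 library above every batch 1 library. The median log2 fold change was 3.99 for the 10 genes and -0.06 over all features.

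**Figure D1:**
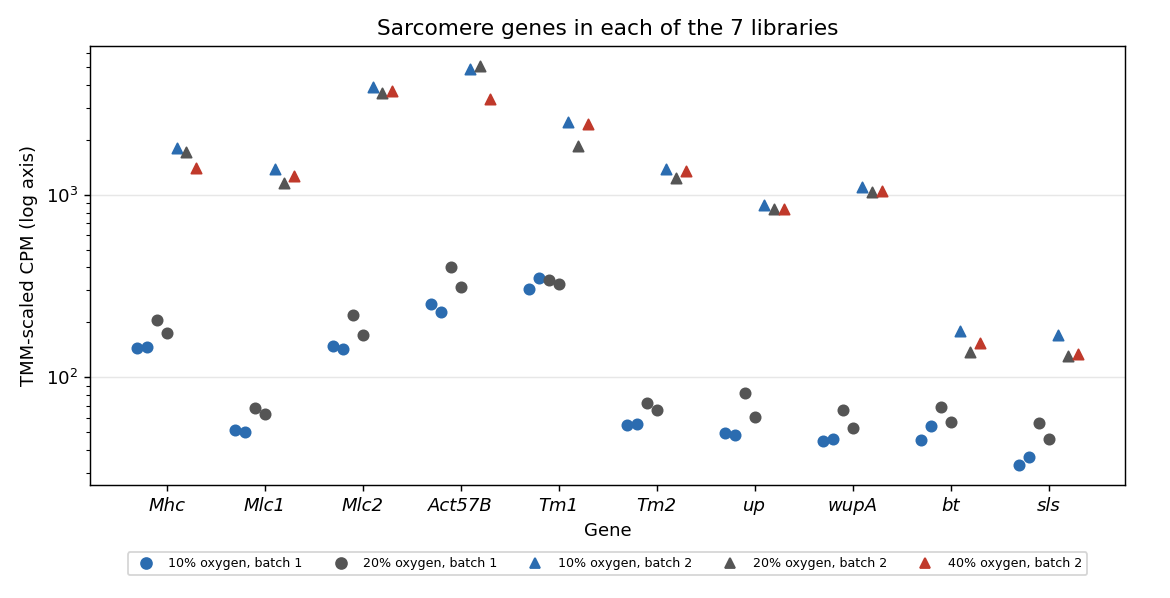
Level of each of the 10 sarcomere genes (x axis) in TMM-scaled CPM on a log axis, 1 point per library, with batch 1 as circles and batch 2 as triangles, coloured by oxygen. The batch 2 triangles lie above the batch 1 circles for all 10 genes, by most for Mlc1 and Mlc2 and by least for bt and sls.

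The thick filament genes come first. Mhc, the muscle myosin heavy chain and motor of the filament (FBgn0264695, chromosome 2L, 16766566 to 16788766), stood at 145 and 148 TMM-scaled CPM in batch 1 at 10% oxygen, at 207 and 175 in batch 1 at 20%, and at 1801, 1707 and 1408 in batch 2 at 10%, 20% and 40%. The batches did not overlap, and the log2 fold change of batch 2 against batch 1 was 3.41 (SE 0.14, adjusted p = 7.2e-05 by edgeR). Mlc1, the essential light chain of muscle myosin (FBgn0002772, 3R, 27657078 to 27660177), stood at 51.4, 50.4, 67.8 and 62.8 CPM in the 4 batch 1 libraries in the same order and at 1392, 1155 and 1275 in batch 2. Its log2 fold change was 4.48 (SE 0.16). Mlc2, the regulatory light chain (FBgn0002773, 3R, 30171438 to 30174551), was at 148, 143, 219 and 171 CPM in the batch 1 libraries and at 3897, 3622 and 3692 in batch 2, with the highest log2 fold change of the 10 genes, 4.50 (SE 0.17).

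Among thin filament genes, Act57B encodes a muscle actin (FBgn0000044, 2R, 20944021 to 20946431). It stood at 251 and 228 CPM in batch 1 at 10% oxygen, at 404 and 315 in batch 1 at 20%, and at 4885, 5084 and 3346 in batch 2 at 10%, 20% and 40%, a log2 batch difference of 4.11 (SE 0.17). The 40% library was the lowest of batch 2. Tm2, a muscle tropomyosin (FBgn0004117, 3R, 15310193 to 15315197), was at 54.5, 55.8, 72.1 and 66.5 CPM in the batch 1 libraries and at 1380, 1230 and 1348 in batch 2, a log2 difference of 4.42 (SE 0.13). Its neighbour Tm1 (FBgn0003721, 3R, 15278220 to 15308779) encodes muscle tropomyosins and also cytoskeletal forms found in other cells, one of which takes part in the transport of oskar mRNA in the oocyte. Tm1 had the highest batch 1 level of the troponin and tropomyosin genes, 307, 352, 342 and 323 CPM, and 2489, 1858 and 2456 in batch 2, with a log2 difference of 2.72 (SE 0.13). With an offset for effective length, which allows for the lengths of the transcripts present, that of Tm1 was 3.38, close to Mhc at 3.44 in the same fit.

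The troponin genes up and wupA encode troponin T, which anchors the complex to tropomyosin, and troponin I, which holds the filament off in the absence of calcium. The gene up (FBgn0004169, X, 13593474 to 13602578) stood at 49.8, 48.3, 81.7 and 60.8 CPM in batch 1 and at 878, 840 and 841 in batch 2. Its log2 batch difference was 3.88 (SE 0.19). The gene wupA (FBgn0283471, X, 18105568 to 18116922) stood at 45.1, 46.0, 65.9 and 52.6 CPM in batch 1 and at 1107, 1034 and 1045 in batch 2, a log2 difference of 4.38 (SE 0.15). In both genes the 3 batch 2 libraries lay close together.

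The giant proteins showed the smallest differences. The gene bt encodes projectin, a titin-like protein with a kinase domain (FBgn0005666, chromosome 4, 724400 to 776474), and sls encodes the Sallimus and kettin proteins of the Z-disc and elastic filament (FBgn0086906, 3L, 2039681 to 2115611). Levels of bt were 45.6, 54.2, 69.2 and 56.7 CPM in batch 1 and 179, 137 and 154 in batch 2, a log2 difference of 1.51 (SE 0.19, adjusted p = 0.00206 by edgeR). Levels of sls were 33.3, 36.5, 56.5 and 46.2 CPM in batch 1 and 170, 131 and 134 in batch 2, a log2 difference of 1.86 (SE 0.22, adjusted p = 0.00169). Both genes were called higher, without overlap between the batches, but by less than the other 8, whose log2 differences ran from 2.72 for Tm1 to 4.50 for Mlc2. With limma on log2(TPM + 1), a scale that understates changes of low levels, the differences were 0.75 for bt and 1.17 for sls. With the offset for effective length they were 1.54 for bt and 2.26 for sls.

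The batch difference went with transcript length across the whole table. Features whose transcripts, weighted by TPM (transcripts per M transcripts), averaged under 1000 bases had a median log2 difference of 0.65 (1843 features), against 0.08 for 1000 to 2000 bases (3373 features), -0.34 for 2000 to 4000 bases (2994 features), -0.66 for 4000 to 8000 bases (1375 features) and -0.85 from 16000 bases (21 features). The mean lengths of bt and sls were 26654 and 26379 bases and that of Mhc 6697 bases, while the other 7 genes lay between 943 bases for Mlc1 and 2286 for Mlc2. Less the median of its length class, the thick filament genes stood at 4.07 for Mhc, 3.83 for Mlc1 and 4.84 for Mlc2, so that Mlc1, above Mhc before, was below it. The thin filament genes stood at 4.02 for Act57B, 2.64 for Tm1, 4.33 for Tm2, 3.80 for up and 4.301 for wupA, and the giants at 2.37 for bt and 2.71 for sls. Within the 21 features from 16000 bases sls ranked 1 and bt ranked 2 by batch difference. Across the 10 genes the log2 difference and the log2 length had a Pearson r of -0.86 and a Spearman rho of -0.64, and without bt and sls r was -0.36 (n = 8). Over all 9853 features r was -0.29. The points share libraries and scaling, and genes are not independent replicates. The shorter fragments of batch 2 moved with this pattern, and their part in it was not tested. Classes of length were set after the batch differences were seen.

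**Figure D2:**
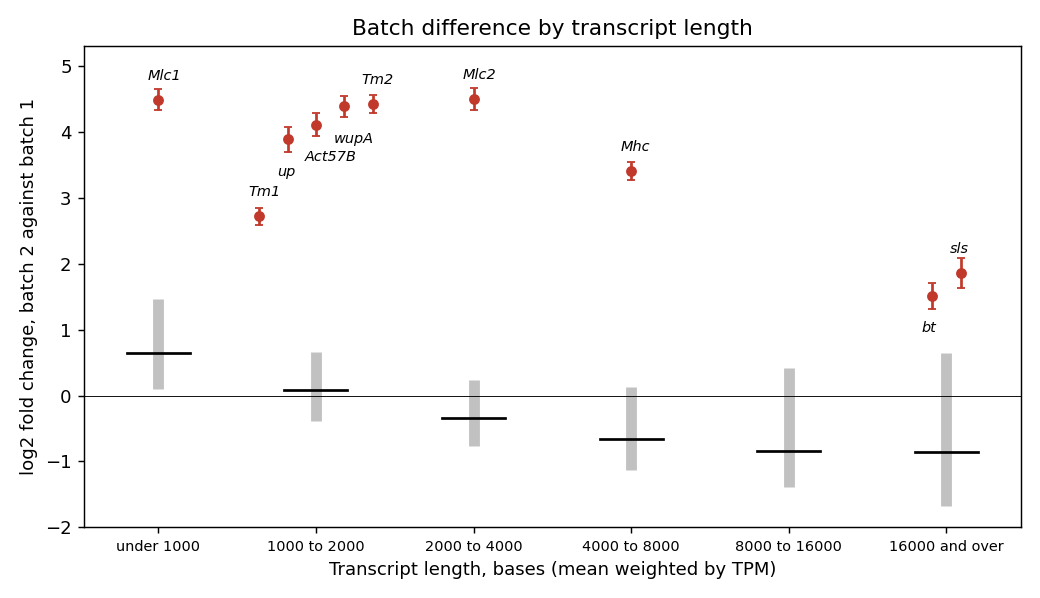
Log2 fold change of batch 2 against batch 1 (y axis) by class of transcript length in bases (x axis): black lines are medians and grey bars the middle quartiles of all features tested, red points the 10 sarcomere genes with SE. The class medians fall from 0.65 to -0.85 with length, and all 10 genes lie above the grey bar of their class.

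Levels were compared between genes per length, as TPM rescaled without the mitochondrial genome. In batch 1 the means ran, over 4 libraries, from 145 TPM for Tm1 and 144 for Act57B, whose ranges overlapped, through Mlc1 (61.5), Mlc2 (59.2), Tm2 (44.4), wupA (41.3) and up (33.1), each of which overlapped the next, to Mhc (18.4), bt (1.499) and sls (1.02), which did not overlap their neighbours. In batch 2 at 10% and 20% oxygen Act57B led with 1686 and 1965 TPM, followed by Tm1 at 1228 and 1016. Mlc2 (975 and 1013) and Mlc1 (1021 and 946) overlapped, and Tm2, wupA, up and Mhc kept their order without overlap, down to Mhc at 142 and 151 TPM. The giants stood last at 3.75 and 3.32 TPM for sls and 3.46 and 2.94 for bt, and overlapped.

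The make-up of the group differed between batches as well. Of the summed TPM of the 10 genes Mlc1 held 10.6% to 11.8% in batch 1 and 15.2% and 13.9% in batch 2 at 10% and 20% oxygen, and Mlc2 held 10.3% to 11.4% against 14.5% and 14.9%. Tm2 and wupA also took larger shares in batch 2 without overlap. Mhc held 3.28% to 3.37% in batch 1 and 2.12% and 2.22% in batch 2, Tm1 22.8% to 30.9% against 18.3% and 14.95%, and up, bt and sls were lower too without overlap. Act57B overlapped, at 22.7% to 29.2% against 25.1% and 28.9%. On TPM 4 genes thus held larger shares and 5 smaller ones without overlap; in shares of the summed counts these were 5 and 4, since Act57B was then higher without overlap and up overlapped. In the 40% library Act57B had its lowest share of all 7 libraries, 19.5%, while Mlc1 and Mlc2 had their highest, 15.6% and 15.7%. With 4 libraries against 2, an exact permutation test cannot go below p = 0.0667, so these shares are descriptions. They are defined within the 10 genes, so the counts without overlap have no share over all features beside them. Mhc, bt and sls, the longest of the 10 genes, were among those with smaller shares. The trend with length seen over the whole table was not removed from these shares, and its part in them was not tested.

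**Figure D3:**
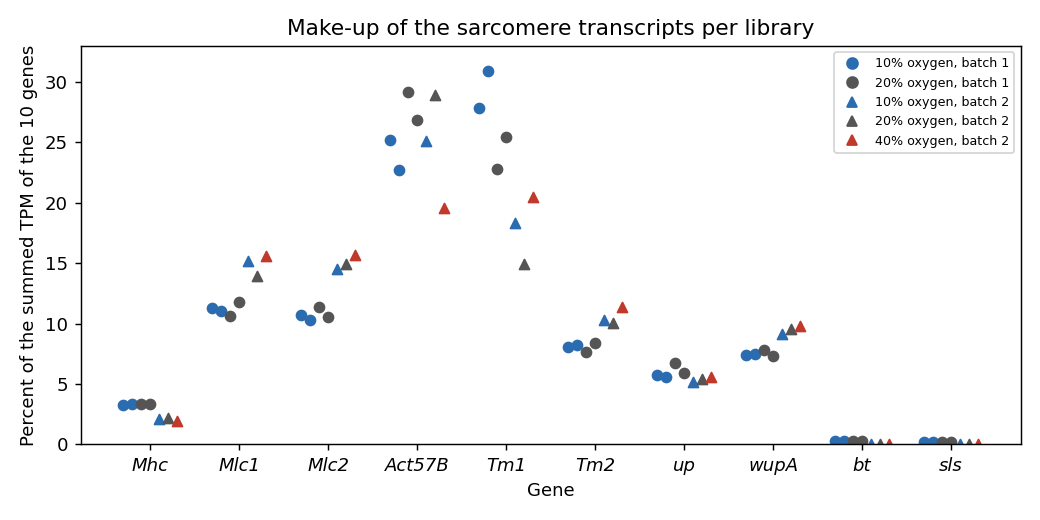
Share of each gene in the summed TPM of the 10 sarcomere genes (y axis, percent), 1 point per library, with batch 1 as circles and batch 2 as triangles. Mlc1, Mlc2, Tm2 and wupA take larger shares in batch 2, Mhc and Tm1 smaller ones, and Act57B is lowest in the 40% library at 19.5%.

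The files hold 99 transcripts of the 10 genes, and 22 of those from genes with several transcripts had a mean share of at least 10% of their gene's TPM in either batch. The shares of 11 of the 22 did not overlap between the 4 batch 1 libraries and the 2 of batch 2 at 10% and 20% oxygen, against a background of 39.4% of 11314 such transcripts of all tested genes. For 3 of the 22 the mean share also differed by at least 30 percentage points, a share near the background of 12.3%. Shares come from the authors' assignment of reads to overlapping transcripts and carry its error.

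Tm1 changed most. Transcript Tm1-RM (FBtr0301959, 1253 bases, from 15281550 to 15307980 on 3R) made up 27.1%, 22.4%, 31.4% and 30.6% of the gene's TPM in batch 1, in the order 10% then 20% oxygen, and 96.5%, 95.4% and 97.1% in batch 2 at 10%, 20% and 40%. Transcript Tm1-RA (FBtr0089960, 2003 bases), which starts downstream at 15290944 and ends at 15304529, held 46.1%, 50.01%, 43.0% and 43.4% in batch 1 and 1.083%, 1.465% and 0.527% in batch 2. Tm1-RM rose in a fit over all 18204 transcripts, added after these shares were seen (13.4% of transcripts higher, 18.2% lower), by a log2 fold change of 5.12 (SE 0.24), well above the 2.72 of the gene as a whole. Tm1-RA fell by 1.90 (SE 0.09) and Tm1-RL (FBtr0089968), which shares the start of Tm1-RM but ends at 15304972, by 0.78 (SE 0.17) in that fit. The 6 Tm1 transcripts with the 3′ end of Tm1-RM summed to 34.1 to 47.1 TPM in batch 1 and to 1191, 975 and 992 TPM in batch 2 at 10%, 20% and 40% oxygen. The 12 others summed to 97.7 to 116 TPM in batch 1 and to 36.6, 41.8 and 25.7 TPM in batch 2. On the TPM scale the median of all tested features was itself lower in batch 2, by a log2 ratio of -0.32. Tm1 overlaps CG45218 and l(3)neo43 on the other strand; the libraries are labelled strand-specific, and the strand setting of the counting is not given in the sources used here.

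In sls the shorter of the 2 main transcripts gained share in batch 2. The transcript sls-RD (FBtr0309042, 17268 bases, 15 exons), which ends at 2088538 inside the gene, held 36.4%, 28.7%, 25.9% and 32.5% of the gene's TPM in batch 1 and 63.4%, 65.8% and 55.1% in batch 2 at 10%, 20% and 40%. The full-span sls-RY (FBtr0332683, 32960 bases, 31 exons) held 52.1% to 63.5% in batch 1 and 34.3%, 33.6% and 42.4% in batch 2. In the fit over all transcripts the log2 difference was 3.21 (SE 0.20) for sls-RD and 1.36 (SE 0.27) for sls-RY. Of the bt transcripts, bt-RI (FBtr0334483) was listed at 0 in 3 batch 1 libraries and held 3.41% in replicate 2 at 20%, against 17.9%, 16.9% and 15.8% in batch 2. Its level was low, 0 to 0.0546 TPM in batch 1 and 0.618, 0.497 and 0.397 TPM in batch 2. In the fit over all transcripts its log2 difference was 7.47 (SE 2.40), which did not pass (adjusted p = 0.0796 by edgeR).

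The remaining genes kept their main transcripts, though shares in Tm2 and Mlc1 shifted by a few percentage points without overlap. Tm2-RA held 91.6% to 94.6% of Tm2 in batch 1 and 90.5%, 86.7% and 90.3% in batch 2. Tm2-RB held 3.80% to 7.25% in batch 1 and 8.58%, 12.2% and 8.29% in batch 2. Mlc1-RB held 97.4% to 98.6% of Mlc1 in batch 1 and 97.3%, 95.99% and 97.0% in batch 2. In all 7 libraries wupA-RA held 88.3% to 92.3% of wupA. The 4 main transcripts of up overlapped between batches, with up-RA at 24.7% to 31.9% in all libraries. The 5 main transcripts of Mhc, which differ in alternative exons, were split unstably: Mhc-RD held 16.7%, 14.6% and 24.7% in 3 batch 1 libraries and 0.00% in replicate 2 at 20%, so shares of Mhc transcripts are not interpreted further. Act57B and Mlc2 have 1 transcript each.

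**Figure D4:**
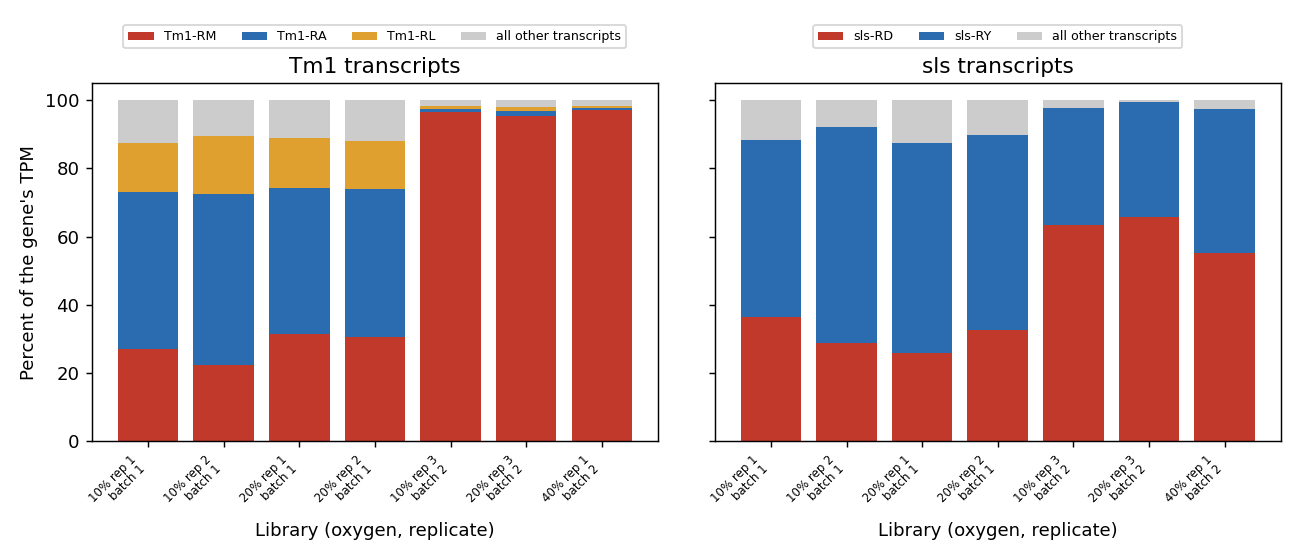
Share of each main transcript in its gene's TPM (y axis, percent) in the 7 libraries, for Tm1 (left) and sls (right). Tm1-RM goes from under 32% in the 4 batch 1 libraries to over 95% in the 3 of batch 2, and sls-RD from under 37% to over 55%.

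Other sarcomere genes were taken from lists of structural partners, chosen with earlier results of these data known. Of all features tested 26.6% were called higher in batch 2 and 27.3% lower. The median of the length class is not subtracted from the values of these lists. Of the thick filament partners all 4 tested of 5 were called higher in batch 2, from Strn-Mlck, a myosin light chain kinase (log2 1.82, SE 0.21), to Mf, the thick filament protein myofilin (4.10, SE 0.15), with a median of 3.08. Of the thin filament partners 6 of 10 tested were called higher and none lower (median 3.08), from TpnC25D, a troponin C, at 4.65 (SE 0.07), down to Lasp at -1.45 (SE 0.72), which did not pass. Of the Z-disc proteins 5 of 7 tested were called higher and 1 lower (median 2.57), with Zasp66 highest at 4.73 (SE 0.16) the capping protein gene cpa lowest at -0.48 (SE 0.17, not called), and its partner cpb the 1 called lower at -0.36 (SE 0.11). The calcium handling and arginine kinase list had 4 of 7 higher and 1 lower (median 0.51), from SclB, a sarcolamban, at 3.65 (SE 0.42) to Msp300, a giant protein of the nuclear envelope and Z-disc, at -1.51 (SE 0.11). Integrin attachment genes had 5 of 8 higher and 2 lower (median 1.00), from the integrin gene if (2.45, SE 0.18) to its relative mew (-0.53, SE 0.09). The mean transcript length of mew was 4870 bases, and features of 4000 to 8000 bases had a median of -0.66. That of TpnC25D was 646 bases, and features under 1000 bases had a median of 0.65. The part of length in these values was not tested. The non-muscle paralogs of the actin and myosin genes had none higher and 3 of 5 lower (median -1.02), from the cytoplasmic actin Act42A at -1.29 (SE 0.24) to the light chain Mlc-c at -0.11 (SE 0.09, not called). Actin genes have near-identical coding sequences between which reads can be split. The sum of Act57B and Act87E was 125 to 203 TPM in batch 1 and 1868 and 2203 TPM in batch 2 at 10% and 20% oxygen. Both genes were higher in batch 2 on their own, so this sum cannot show whether reads were split. The cytoplasmic actin Act5C was at 2935 to 3394 TPM in batch 1 and at 775 and 1327 in batch 2. Act42A was at 191 to 269 TPM against 50.4 and 84.4. Splitting of reads between the actins was not tested.

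The lists of muscle types were both above their batch 1 sums in batch 2, and the difference between the lists was not tested. The flight muscle genes were very low, each at 0.715 TPM or less in every library, so their sum carries little weight. The flight muscle list (Act88F, fln, TpnC4, TpnC41C and salm) summed to 0.534 to 1.16 TPM in batch 1 and 1.30 to 2.16 TPM in batch 2, with 2 of 5 genes tested and neither called; 4 of the 5 stand in the filament lists too (Act88F 1.07, SE 0.68; TpnC4 2.01, SE 0.94). The visceral and larval muscle list (Act87E, bap, bin and Hand) summed to 19.1 to 25.5 TPM in batch 1 and 249 and 307 TPM in batch 2 at 10% and 20%, with all 3 tested of 4 called higher. Act87E is in the thin filament list as well. The 3 were bin, a forkhead factor of visceral muscle (3.67, SE 0.39), Hand (4.03, SE 0.13) and Act87E (4.15, SE 0.16). The list of muscle transcription factors, which also holds bap, bin and Hand, had 2 of 3 tested higher and Mef2, the general muscle factor, called lower at -0.33 (SE 0.08, adjusted p = 0.0223 by edgeR). On the scale of TPM Mef2 was at 10.3 to 12.0 in batch 1 and at 5.94 and 6.85 in batch 2 at 10% and 20%. On that scale the median of all tested features was itself lower in batch 2, by a log2 ratio of -0.32. The mean transcript length of Mef2 was 3756 bases. Features of 2000 to 4000 bases had a median log2 batch difference of -0.34. Hand averaged 713 bases, and features under 1000 bases had a median of 0.65. The part of length in the values of Mef2 and Hand was not tested.

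Markers of other cells were compared between batches too, and their part in the sarcomere values was not tested. Their counts stand beside 26.6% of all features called higher in batch 2 and 27.3% called lower. Counts near these shares, in lists this short, do not set a list apart. Trachea markers had 5 of 6 tested higher and none lower, with a summed level of 7.49 to 8.11 TPM in batch 1 and 84.1 and 83.5 TPM in batch 2 at 10% and 20%, from knk (log2 0.97, SE 0.47, not called) to Gasp, a chitin-binding protein (4.06, SE 0.06). Neuron markers had 3 of 5 tested higher and 1 lower (4.85 to 5.92 against 19.6 and 17.6 TPM), from the active zone gene brp (-3.05, SE 0.30) to the synaptic vesicle gene nSyb (2.35, SE 0.13). Haemocyte markers had 3 of 5 higher (34.7 to 49.6 against 34.3 and 38.8 TPM), from crq (0.22, SE 0.10, not called) to Pxn (3.67, SE 0.31). The median log2 difference of the haemocyte list was 2.82. Its sum was mostly crq, at 34.0 to 49.0 TPM in batch 1 and 31.6 and 34.2 TPM in batch 2. Fat body markers had 4 of 5 higher (193 to 554 against 1337 and 863 TPM), from Yp2 (1.60, SE 0.55, not called) to Yp3 (2.29, SE 0.40), both yolk proteins. That sum was mostly yolk protein genes: Yp1 (71.5 to 219 against 494 and 377 TPM), Yp2 (59.2 to 201 against 431 and 245) and Yp3 (56.4 to 128 against 403 and 235). The tissue these transcripts came from was not tested. Ovary markers had 1 of 7 higher and none lower (1.04 to 42.3 against 7.72 and 7.06 TPM), from orb (-4.94, SE 2.32, not called) to grk (3.66, SE 0.39). Of the 7 ovary genes tested 6 lay below 0, and the median was -3.08. The ovary sum in batch 2 was mostly grk, at 6.82 and 5.46 TPM. The Malpighian tubule and hindgut list had 1 of 7 higher and 2 lower (93.7 to 238 against 108 and 164 TPM), from ClC-a (-1.24, SE 0.12) to the hindgut factor byn (1.498, SE 1.30, not called), which reached no more than 0.565 TPM in any library. Enterocyte markers had 9 of 11 lower and 1 higher (104531 to 108741 against 52034 and 55184 TPM), from the amylase Amy-d (-1.46, SE 0.14) to the protease Jon99Ci (1.53, SE 0.14). Progenitor markers had 1 of 2 lower (7.49 to 9.58 against 3.76 and 5.39 TPM), Delta (-1.39, SE 0.30), with esg at -0.38 (SE 0.20, not called). Enteroendocrine markers had 2 of 5 higher and 2 lower (173 to 198 against 185 and 169 TPM), from pros (-0.95, SE 0.22) to the hormone gene NPF (2.14, SE 0.20). In bulk samples, more muscle cells in a library and more sarcomere RNA per cell cannot be told apart.

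The genes outside the group whose profile came nearest to the mean of the 10, by the root mean square distance of centred log2 CPM over the 7 libraries, were CG45076 (0.0780 log2 units), CG44245 (0.0843), CG43897 (0.0881), CG9164 (0.0930), CG7378 (0.0960) and CG4829 (0.103). They were 6 of 10364 features compared. Of the group itself Mhc lay nearest, at 0.119 and rank 8 of all features, and bt farthest, at 0.991. CG43897 stood at 20.6 to 28.6 TPM in batch 1 and at 210, 206 and 153 TPM in batch 2 at 10%, 20% and 40% oxygen.

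At 10% oxygen against 20% none of the 10 genes was called. With batch as a covariate edgeR called 0 of 9853 features (0% of features; 594 at an unadjusted p below 0.05), and DESeq2 called 125 (1.27%), none of them among the 10. The sarcomere genes had log2 fold changes from -0.42 for Act57B (SE 0.16, adjusted p = 0.787 by edgeR) to 0.13 for Tm1 (SE 0.13), with 9 of 10 below 0 and a median of -0.23, against 0.01 over all features. That median was -0.41 without replicate 3 at 10% or at 20%, -0.14 without replicate 1 at 10%, -0.09 without replicate 1 at 20%, and 0.11 with no batch term.

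Within batch 1 the level was lower at 10%. Both 10% libraries lay below both 20% libraries in 9 of the 10 genes in TMM-scaled CPM, Tm1 being the exception. Of 9405 tested features 16.1% did so (13.4% in TPM, on which the same 9 genes did). The genes share these 4 libraries and are not independent replicates, so the count does not stand for 9 separate observations. Their mean log2 CPM was 6.39 and 6.43 at 10% against 6.92 and 6.66 at 20%. Summed over the 10 genes the level was 1130 and 1161 CPM at 10% against 1585 and 1330 at 20%. The log2 fold changes ran from -0.62 for Act57B (SE 0.15) and -0.59 for sls (SE 0.12) to -0.05 for Tm1 (SE 0.09), with all 10 below 0 and a median of -0.41 (all features: -0.01). None was called by edgeR (adjusted p from 0.46 to 0.926), which called 0 of 9405 features in batch 1, with 680 at an unadjusted p below 0.05, among them 9 of the 10 genes. DESeq2 called 201 features (2.14%), of which 83 (0.883% of those tested) were lower, and among these were Act57B (adjusted p = 0.0215), sls (0.0272), Mhc (0.0418) and Mlc1 (0.0419). In the same libraries ovary markers summed to 1.04 to 11.03 TPM at 10% against 12.3 to 42.3 at 20%, tubule and hindgut markers to 93.7 to 190 against 148 to 238, and trachea markers to 7.73 to 8.11 against 7.49 to 7.55. Whether these moved the sarcomere values was not tested.

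Within batch 2, with 1 library a group and no test, the order was the other way. In TMM-scaled CPM 9 of the 10 genes stood higher at 10% than at 20% oxygen, as did 50.5% of all features, with log2 ratios from -0.06 for Act57B to 0.42 for Tm1 and a median of 0.14. The pattern of both 10% libraries below both 20% libraries in batch 1 together with 10% above 20% in batch 2 was seen in 8.34% of all features. All of the 10 genes but Tm1 and Act57B showed it. The pattern was taken from the values of these genes, and its batch 2 part rests on 1 library against 1. That share is therefore a description and no test. On the TPM scale, where the median feature had a log2 ratio of -0.12, 5 of the 10 genes were higher at 10%. The test of the difference between batches (interaction of oxygen and batch, edgeR over 10211 features) had log2 values from 0.53 for Tm1 (SE 0.16) to 1.02 for sls (SE 0.20), all 10 above 0, with a median of 0.62 against 0.08 over all features. None passed (adjusted p from 0.419 to 0.540), edgeR called 0 features in all (0%; 1021 at an unadjusted p below 0.05, 6 of the 10 genes among them), and DESeq2 called 121 (1.18%), with Mlc1 among them (adjusted p = 0.00676). The median was 0.42 with no scaling beyond the total.

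**Figure D5:**
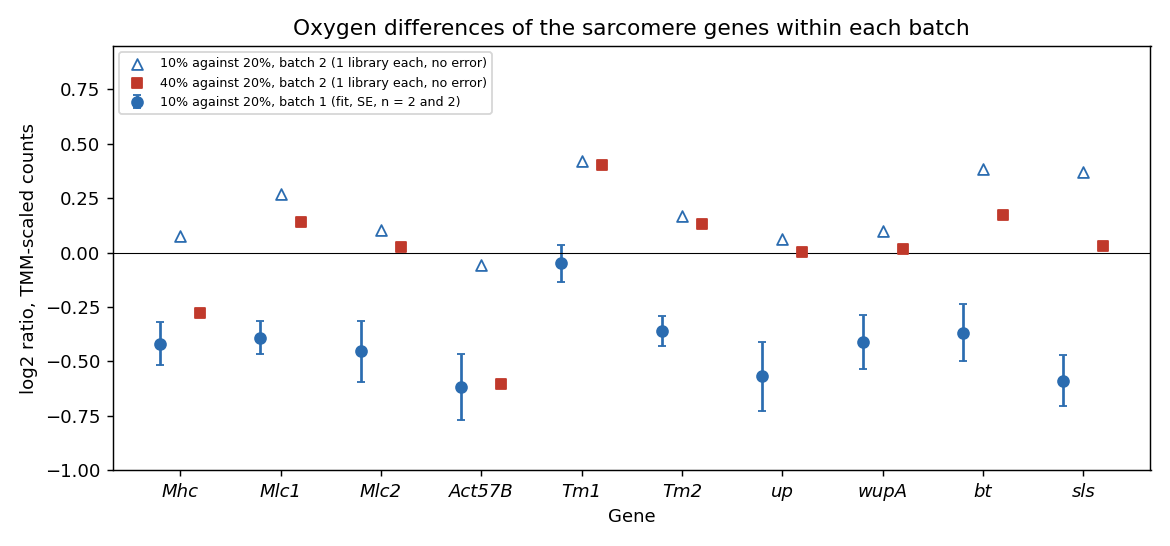
Log2 ratios between oxygen levels for the 10 sarcomere genes on TMM-scaled counts: 10% against 20% in batch 1 (circles, fit with SE, 2 libraries each), 10% against 20% in batch 2 (open triangles, 1 library each) and 40% against 20% in batch 2 (squares, 1 library each). All 10 circles lie below 0, 9 of 10 triangles lie above 0, and the lowest square is Act57B at -0.60.

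The 40% library stood near its batch mates for most of the group. In TMM-scaled CPM 8 of the 10 genes lay between the 10% and 20% libraries of batch 2. The share of all features that did so was not computed. Mhc and Act57B lay below both, as did 37.4% of all features. Act57B stood at 3346 CPM against 4885 at 10% and 5084 at 20%, log2 ratios of -0.55 and -0.60, and Mhc at 1408 against 1801 and 1707. The summed level was 15698 CPM against 18179 and 16798. On the TPM scale, on which the median feature had a log2 ratio of -0.32 against the 20% library, 9 of the 10 genes lay below both mates, beside 60.7% of all features.

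In the fit of all 7 libraries, which assumes that the single 40% library varies like the others, none of the 10 genes was called against 20% oxygen, where 2.65% of 10364 features were called (1.28% higher, 1.37% lower), or against 10%, where 1.09% were (0.386% higher, 0.704% lower). DESeq2 called 9.32% and 7.77% of features, and also none of the 10. Act57B had the largest difference from 20%, -0.79 (SE 0.27, adjusted p = 0.196 by edgeR), and Mhc the next, -0.44 (SE 0.21). The median of the 10 was -0.16 against 20% and 0.07 against 10%. Without replicate 3 at 20% the first was -0.61, without replicate 3 at 10% it was 0.03, and without replicate 1 at 20% it was -0.07. The second was 0.48 without replicate 3 at 10%, -0.15 without replicate 3 at 20%, and 0.02 without replicate 2 at 10% or replicate 1 at 20%. Taken directly between the batch 2 libraries in TMM-scaled CPM, both medians had the other sign than in the fit of all 7 libraries. They were 0.03 against 20%, with 8 of the 10 genes above 0, and -0.11 against 10%, with all 10 below 0. The medians over all features on this scale were -0.0005 against 20% and 0 against 10%. Act87E, the other actin of visceral muscle measured, was at -1.09 (SE 0.24, adjusted p = 0.0892) against 20%, at 86.1 TPM in the 40% library beside 182 and 238 in its mates. Of the structural lists the 1 gene called at 40% was Argk1, the arginine kinase that buffers ATP in muscle and other tissues, lower than at 20% by a log2 value of -0.91 (SE 0.14, adjusted p = 0.0499 by edgeR). Of the marker lists 3 enterocyte genes were called lower at 40% than at 20%, the proteases Jon25Bi (-2.85, SE 0.27) and Jon25Bii (-2.94, SE 0.25) and the mannosidase LManV (-2.51, SE 0.31), and the same 3 against 10%. Enterocyte markers summed to 25278 TPM in the 40% library, below its mates, and trachea markers to 68.0 TPM and visceral and larval muscle markers to 158 TPM; their part in the sarcomere values at 40% was not tested.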

How the data were processed

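For each midgut library the authors deposited expected counts, TPM and effective lengths per transcript, per the file headers, and 1 table naming the gene of every transcript. The submitters' processing notes list STAR 2.7.11b and Salmon 1.10.3, but neither their settings nor a genome build is given in the sources used here. The 41539 transcripts all have the length given by the Ensembl annotation of assembly BDGP6.54, from which coordinates were taken.

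From these files, gene counts were formed as rounded sums of the expected counts, and the 38 mitochondrial genes removed, as they were from TPM before rescaling. Depth was 5.73 to 21.2 M counts. edgeR 4.0.16 (R 4.3.3; TMM, filterByExpr, quasi-likelihood test, Benjamini-Hochberg over all features) was the main test, with batch or oxygen as covariate. Standard errors are those implied by the test statistic. Alternatives were RLE size factors, no scaling, mitochondrial genes kept, no filter, DESeq2 1.42.0, length offsets, limma 3.58.1 on log2(TPM + 1) for features with mean TPM of at least 1, other batch terms and leaving out each library. The scripts were tested on simulated data. Profile distances used log2(CPM + 0.5).

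The 10 genes and the 18 other lists were chosen with earlier results of these data known. All 120 list symbols were found, 3 of them (Unc-89, nos and Dl) under the names Obsc, nanos and Delta by gene ID. Named besides the 10 genes were the tested genes with the largest and smallest batch difference in each list, list genes called at 10% or 40%, the 6 nearest profiles and transcripts from among those with a mean share of at least 10%. The sum of Act57B and Act87E, cpb, Act87E at 40% and the Tm1 end classes were chosen after values were seen. So were the levels of CG43897, Mef2, crq, grk, bt-RI, Act5C, Act42A, Yp1, Yp2 and Yp3. The lengths of Mef2, mew, Hand and TpnC25D and the oxygen pattern joined over both batches were too.

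Libraries with 1 number at 10% and 20% oxygen are of 1 batch, and their deviations from group means correlated at 0.389, 0.428 and 0.701 for numbers 1, 2 and 3. Within batch 1 numbers 1 and 2 correlated as highly across (0.386 and 0.487), and with batch removed r was -0.0335. A fit blocked on replicate number was run as an alternative to the batch term.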

Additional observations from a re-analysis of the deposited data

How the results depend on the processing

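All 10 genes were called higher in batch 2 under each alternative run, and none of 150 fold changes turned sign. The median was 3.66 to 4.28 without 1 library, 3.55 with limma on log2(TPM + 1), and between 3.94 and 4.04 in the other fits. For 10% against 20% oxygen no alternative called any of the 10; the median was -0.407 to -0.085 without 1 library, 0.11 with no batch term, and -0.225 with the replicate block, which changed no call. In batch 1 alone DESeq2 called 4 of the 10, and the median was -0.53 to -0.31 without 1 library. For the difference between batches DESeq2 called 1, and the median was 0.42 with no scaling beyond the total and 0.45 to 0.69 without 1 library; leaving out a replicate 3 could not be fitted. For 40% no alternative called any of the 10. Against 20% the median was -0.607 to 0.028 without 1 library and 1.40 with no batch term. Against 10% it was -0.15 to 0.48 without 1 library and 1.29 with no batch term. With no batch term the batch difference enters these values, by construction of that fit. Where 1 library of a group or batch remains, it is assumed to vary like the others. DESeq2 and edgeR differed by more than 1.5 times in features called at 10% (125 and 0), in batch 1 (201 and 0), for the difference between batches (121 and 0) and at 40% against 20% (966 and 275) and 10% (805 and 113). As whole genes the 10 had no count below 706, but single transcripts of them were listed at 0 in some libraries. Whether depth limited the transcript shares was not tested. Batch 2 has 3 libraries, 1 at each oxygen level, which limits every statement within it.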
